A study of Mus musculus with 2 samples.

Results

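The Gimap genes encode the GTPases of immunity-associated proteins, a small family of guanine nucleotide-binding proteins of white blood cells. All 8 named members of the family (Gimap1, Gimap3, Gimap4, Gimap5, Gimap6, Gimap7, Gimap8 and Gimap9) were represented on the array, out of 18193 genes in all. They were taken by gene symbol in the platform annotation, which gave 11 probe sets. Each of these carried 1 symbol only, and 0 probe sets shared a member's name with another gene. The family was selected on its intensities in both arrays, with earlier results of these data in view, so its difference between the arrays is a description.

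The arrays measured RNA of sorted spleen cells from C57BL/6 mice bearing hepatocellular carcinoma, a cancer of the liver. One group was Ter119-positive and CD45-negative (Ter119 marks cells of the red lineage, CD45 marks white cells), and it is called CD45-negative here. The control was the CD45-positive cells of the same tumour-bearing animals. Whether Ter119 was part of the control gate, how the tumour arose, and whether RNA of several animals was pooled are not given in the sources used here. Each group had 1 array, so there was no replicate, no difference could be set against replicate error, and no test is given.

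Gimap proteins share a GTP-binding domain first known from a plant defence protein and are related in structure to septins and dynamins. Most sit on membranes of the cell interior and are known for keeping lymphocytes alive. Loss of Gimap5 causes a severe shortage of T cells in rodents, Gimap1 is needed by mature T and B cells, and Gimap4 speeds the death of T cells. Gimap6 binds a protein of the autophagy machinery, Gimap7 becomes active on pairing with another Gimap molecule, and Gimap8 is the longest member, with repeated GTP-binding domains.

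The genes stand side by side on mouse chromosome 6 in the order Gimap8, Gimap9, Gimap4, Gimap6, Gimap7, Gimap1, Gimap5 and Gimap3, with no other protein-coding gene between them in the RefSeq table. Gimap6 and Gimap3 are read from the minus strand and the other members from the plus strand. Because these neighbours were all dim in the same array, the 120 bases upstream of the start are shown for 4 of them. These are Gimap6, which had the largest difference among members measured in both arrays, Gimap5, whose CD45-negative signal was far under the detection level, and Gimap1 and Gimap7, whose windows hold the same short motif. Sequences are RefSeq's, 5′ to 3′ on the gene's own strand. Capitals mark matches, on either strand, to any of the 7 motifs listed after them.
Gimap6, GRCm38.p6 chr6:48708245-48708364, minus strand: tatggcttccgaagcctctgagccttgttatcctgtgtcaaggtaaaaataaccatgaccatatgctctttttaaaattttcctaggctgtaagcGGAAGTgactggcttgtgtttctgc
Gimap5, GRCm38.p6 chr6:48746077-48746196, plus strand: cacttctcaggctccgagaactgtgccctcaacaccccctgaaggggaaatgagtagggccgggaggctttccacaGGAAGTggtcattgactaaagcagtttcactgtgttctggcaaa
Gimap1, GRCm38.p6 chr6:48738927-48739046, plus strand: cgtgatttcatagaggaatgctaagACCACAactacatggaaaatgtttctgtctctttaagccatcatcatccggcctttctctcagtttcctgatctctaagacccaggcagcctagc
Gimap7, GRCm38.p6 chr6:48718501-48718620, plus strand: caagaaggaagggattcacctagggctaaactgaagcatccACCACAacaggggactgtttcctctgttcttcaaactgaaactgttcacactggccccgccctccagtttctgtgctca

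Each motif was searched on both strands of a window from 250 bases before to 50 bases after each start, in 9 windows of the 8 members (Gimap8 has 2 starts) and in all 32851 windows of the table. The ETS-type letters GGAAGT were found in windows of 4 members (Gimap1, Gimap5, Gimap6 and Gimap9), against 23.8% of all windows. The RUNX-type letters TGTGGT were found in 3 members (Gimap1, Gimap4 and Gimap7), against 16.8%. The KLF-type letters CCACCC were found in 5 members, against 31.5%, and the IKZF1-type letters TGGGAA in Gimap3 only, against 25.6%. The FOXO-type letters GTAAAC were found in Gimap3 only (7.89% of all windows) and the TATA letters TATAAA in Gimap6 only (13.6%). The GATA-type letters AGATAA were found in 0 member windows, against 11.2%. No 1 of these motifs was found in all members. The member windows held 2 to 8 CG dinucleotides (median 4), against a median of 7 over all windows, and 8 of the 9 lay under that median. A match describes letters only and is no binding site.

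All 8 Gimap genes were dimmer in the CD45-negative array than in the CD45-positive array. Signal counted as measured above an intensity of 101.1, the 95th percentile over both arrays of 80 probe sets of smell and pheromone receptor genes (olfactory and vomeronasal), taken to be silent in spleen. All 8 members were measured in the CD45-positive array and 5 of them (Gimap1, Gimap3, Gimap4, Gimap6 and Gimap8) also in the CD45-negative array. All 8 were at least 4-fold lower there, and so were 16.8% of all 11793 genes measured in at least 1 array. Differences are given on the log2 scale, CD45-negative minus CD45-positive, and the median of the members was -5.26 with the 3 members under the level held at it (-5.12 with a level set for each array). The 5 members measured in both arrays ran from -6.75 to -4.10. Over all measured genes the median was -0.26 as deposited and 0.01 after quantile normalization, and relative to it the members' median was -5.01 and -5.19, respectively. At the level of probe sets, all 11 were at least 4-fold lower, against 14.5% of 21447 measured probe sets with 1 symbol. In sorted bulk cells, fewer cells that carry a transcript and less of it per cell cannot be told apart.

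**Figure D1:**
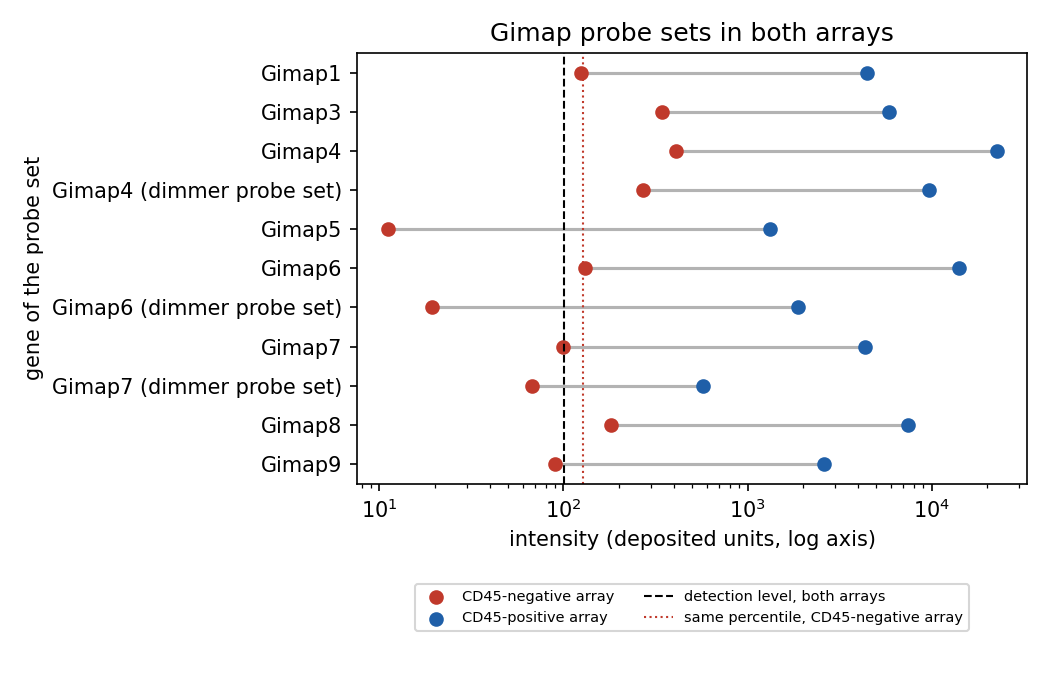
Deposited intensity (log axis) of the 11 Gimap probe sets, 1 row each, in the CD45-negative array (red) and the CD45-positive array (blue), 1 array per group, with no error bars. The dashed line is the detection level of 101.1 and the dotted line, at 127.3, the same percentile within the CD45-negative array; every blue point lies to the right of both lines, and 5 of the 11 red points lie to the right of both.

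Gimap6 read 130.6 in the CD45-negative cells and 14034.8 in the CD45-positive cells. This is a 107-fold lower value (-6.75 on the log2 scale), rank 5 from the lowest among the 8272 genes measured in both arrays. The dimmer value lay just above 127.3, which is the 95th percentile when the receptor probe sets of that array alone are taken. With the detection level at the 99th percentile it fell under the level, and the difference was -6.45 or below. The second Gimap6 probe set read 19.2 against 1888.6, where the dimmer value is under the detection level, so that the difference is at least 14.8-fold. Lower bounds are taken against 127.3. Both probe sets thus put the CD45-negative array far lower. With their mean the CD45-negative value fell under the detection level, and the difference, held there, was -5.67 or below.

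Gimap4 read 409.6 against 22669.8, or 55.3-fold lower (-5.79). This probe set carries the mark of one that can match more than 1 transcript. The other Gimap4 probe set, without that mark, read 271.1 against 9734.2, or 35.9-fold lower (-5.17). Gimap4 is the only member whose probe sets were both above the detection level in both arrays. Their differences lay less than 0.83 log2 units apart. That number is the pooled SD of probe set differences around the mean of their gene, over 5474 genes. Values under the level were held at it, and the SD is not a typical gap between probe sets. That spread is not replicate error.

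Gimap8 read 181.3 against 7417, or 40.9-fold lower (-5.35). Gimap1 read 124.4 against 4479.9. Its dimmer value was above the common level but not above 127.3, so it was at least 35.2-fold lower. For both, a single probe set gave the value.

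Gimap7 had 99.5 against 4360.6 by its brighter probe set, at least 34.3-fold lower. Its dimmer probe set read 67.2 against 574.7, which gives a bound of at least 4.52-fold. Of the 3 members with more than 1 probe set, Gimap7 was the one whose probe sets differed most without a detection level, at -5.45 and -3.10. With their mean the CD45-negative value was under the detection level, and the difference, held there, was -3.97 or below. The size of the Gimap7 difference thus depended on the probe set and its direction did not.

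Gimap9 read 90.1 against 2605.3, with the dimmer value under the detection level, so that it was at least 20.5-fold lower. Gimap5, the member whose loss depletes T cells, read 11.1 against 1326.6. The bound for Gimap5 was at least 10.4-fold lower. The deposited values alone give -6.90 on the log2 scale, but 11.1 lies in the range of background and the larger number is not a measured difference.

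Gimap3 had the smallest difference among the 5 members measured in both arrays, with 343.4 against 5891.3, or 17.2-fold lower (-4.10). Its CD45-negative intensity was 5.83% of its CD45-positive intensity. In the other members that share ran from 0.837% in Gimap5, where the dimmer value is background, to 3.46% in Gimap9. RefSeq lists Gimap5 among the older names of Gimap3, and the values here follow the current symbols by gene identifier, which matched for all 8 members. Gimap3 and Gimap5 are close relatives, and whether their probe sets share signal was not tested.

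Counted from the lowest difference among the 8272 genes measured in both arrays, Gimap4 had rank 33, Gimap8 rank 74 and Gimap3 rank 275, beside rank 5 of Gimap6. Gimap5, Gimap7 and Gimap9, under the level in the CD45-negative cells, were not ranked. Gimap1 had rank 94 by the common level, but its dimmer value was under 127.3. The 5 genes nearest to Gimap6 in difference, among genes measured in both arrays, were Ighv14-2 (a gap of 0.06 on the log2 scale), Ms4a4b (0.10), Igkv9-120 (0.17), Igkv6-14 (0.18) and Ccl5 (0.19). Likeness here rests on 2 arrays only, and the dimmer values of Igkv6-14 (102.6) and Ccl5 (121.3) were under 127.3. Ighv14-2, Igkv9-120 and Igkv6-14 are antibody variable genes that share sequence with relatives, Ms4a4b encodes a membrane protein of T cells, and Ccl5 a chemoattractant made by T and natural killer cells.

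**Figure D2:**
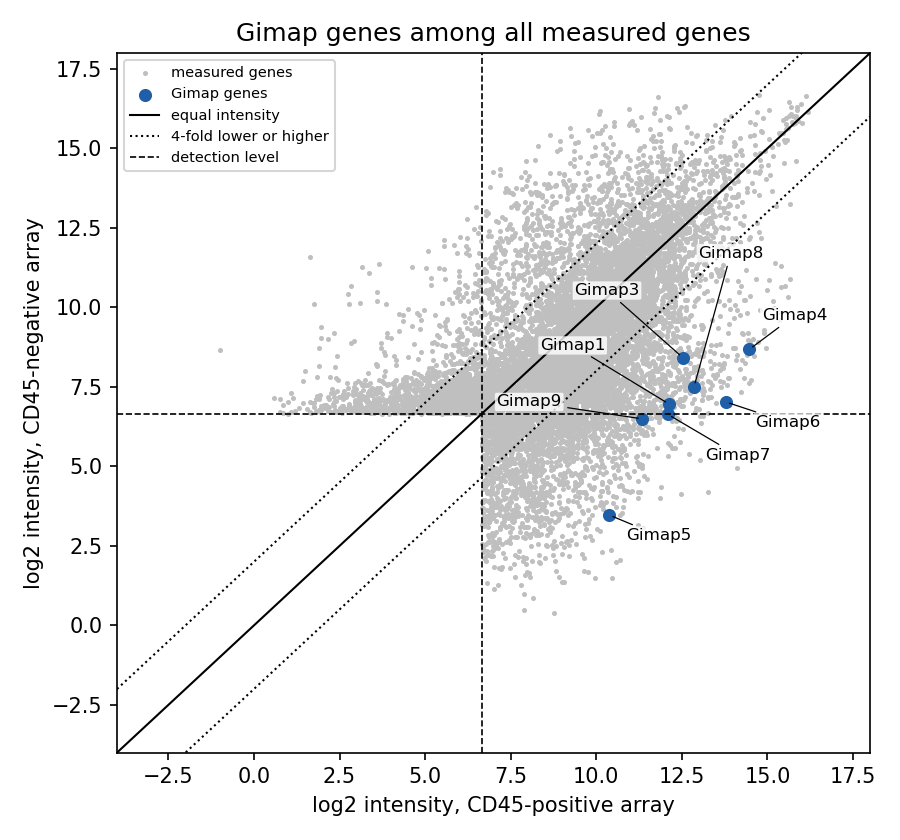
Log2 intensity of each measured gene in the CD45-positive array (x axis) and the CD45-negative array (y axis), with the 8 Gimap genes in blue, 1 array per group. All Gimap genes lie under the lower dotted line, which marks a 4-fold lower value in the CD45-negative array; Gimap5, Gimap7 and Gimap9 also lie under the horizontal dashed detection level.

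The low values did not stop sharply at one end of the gene cluster. Of the 6 protein-coding genes on each side, 9 had a value and 5 were measured in at least 1 array. Next to Gimap3, Tmem176b read 114 against 1734.2, at least 13.6-fold lower. Its partner gene Tmem176a, which lies beyond it and encodes a related membrane protein, read 90.1 against 469.8. Tmem176a counted as at least 4-fold lower against the common detection level (a difference of -2.22 or below) but only as at least 3.69-fold lower against 127.3, and it was under 4-fold after quantile normalization (-1.72).

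On the other side, next to Gimap8, no neighbour could be shown to be at least 4-fold lower, although for those under the level such a difference may exist. Zfp775, a zinc finger gene, read 2.4 against 224.4, so that it was at least 1.76-fold lower (-6.55 from the deposited values, with 2.4 in the range of background). Repin1, another zinc finger gene, read 15.2 against 269.8 by its brightest probe set, but its 4 probe sets ran from -4.15 to 2.57 without a detection level and do not settle a direction. Lrrc61 read 118.4 against 439.9, a difference of -1.89, with the dimmer value under 127.3. Atp6v0e2 and Rarres2 were under the detection level in both arrays, and so were Aoc1 and Doxl1, which lie beyond Tmem176a on the Gimap3 side. Gm5111 on the Gimap8 side and Gm7932 and Doxl2 on the Gimap3 side were not analysed here. Whether the differences of Zfp775, Repin1 and Tmem176a reached the size of the members' cannot be read from such bounds.

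**Figure D3:**
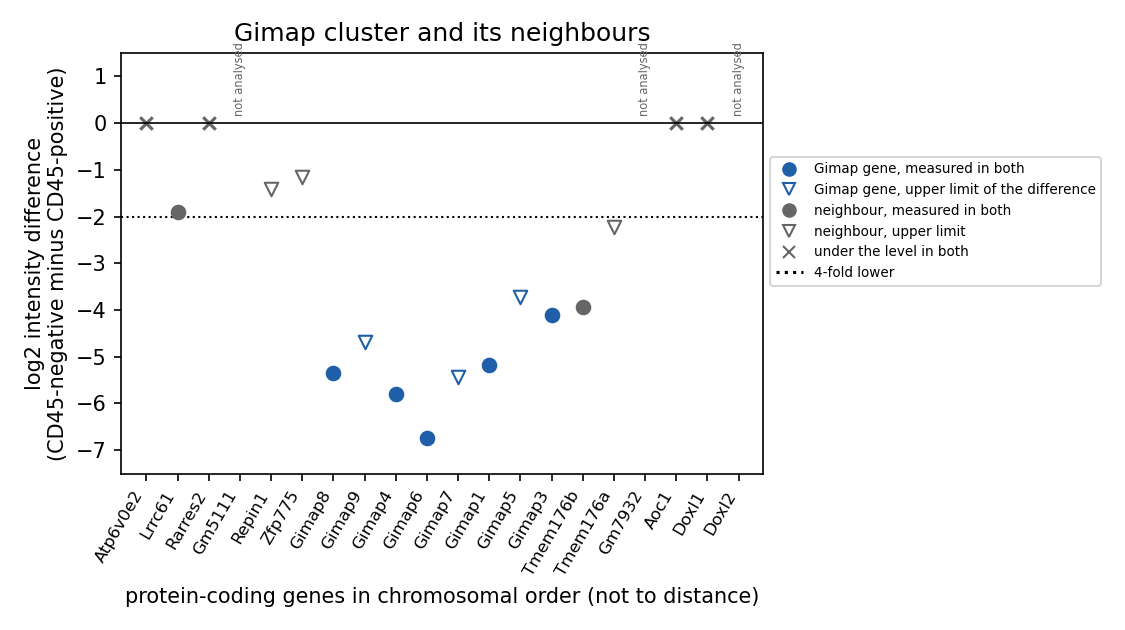
Difference in log2 intensity (CD45-negative minus CD45-positive) for the 8 Gimap genes (blue) and 6 protein-coding neighbours on each side (grey), in chromosomal order and not to distance, 1 array per group. Filled points were measured in both arrays, open triangles are upper limits of the difference and crosses mark genes under the level in both; every Gimap gene and, outside the cluster, Tmem176b and Tmem176a lie under the dotted 4-fold line.

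Markers of white cells moved with the Gimap genes, in a sort made on CD45 itself. Ptprc, which encodes CD45, read 422.7 against 32146.9 (1.31% of the CD45-positive intensity). Of the white cell lists, 13 of 14 measured T cell markers passed 4-fold downward (median -4.30), as did 11 of 11 B cell markers (median -5.63), 10 of 10 natural killer cell markers (median -4.22) and 11 of 12 myeloid markers (median -4.61). Of all measured genes, 16.8% passed 4-fold downward. When the detection level was set at the 99th percentile, the natural killer count was 7 of 10. Summed over each list, the intensity in the CD45-negative array was 3.15% of that in the CD45-positive array for T cell markers (1590.4 against 50460.2), 1.95% for B cell markers (2676 against 137014.8), 2.33% for natural killer markers (978.5 against 42023.7) and 3.15% for myeloid markers (5590.5 against 177556.4). The Gimap genes summed to 1390 against 62785.3, or 2.21%, within the range of these lists. All these sums include CD45-negative values under the detection level, so the shares hold background signal as well. In that array 7 of 14 T cell and 8 of 11 B cell markers were above the level. The counts were 4 of 10 for natural killer and 9 of 12 for myeloid markers. No white cell marker was at 0 in either array. Cd3d, part of the T cell receptor complex, at 18.4 and Cr2, a B cell complement receptor, at 73.6 were among those under the detection level in the CD45-negative cells. The part of remaining white cells in the low Gimap signal of the CD45-negative array was not tested.

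Endothelial cells lack CD45 and can carry Gimap transcripts, and their markers differed in both directions. Pecam1, which white cells and platelets also carry, read 113.1 against 1350.7. Eng (514.6 against 289.7), Esam (237.8 against 65.7) and Egfl7 (129.3 against 72.8) were brighter in the CD45-negative cells by their brightest probe sets. The differences were under 4-fold or had the dimmer value under the level. The 4 probe sets of Egfl7 ran from -1.52 to 1.81 without a detection level and do not settle a direction. Of 12 endothelial markers 5 passed the level in CD45-negative cells and 4 in CD45-positive cells, the median over 6 measured was 0.25, and the list summed to 1378.6 against 2215.3. Of the other markers, Stab2 read 157.7 against 143.4, above the level in both arrays. Cdh5 stood at 13.8 against 126.4, and its probe sets ran from -3.20 to 0.94 without a detection level. Kdr (5.8 against 78.3), Tek (2.4 against 1.3) and Tie1 (7.5 against 6.2) were under the level in both arrays. So were Emcn (99.5 against 29.4), Robo4 (88.0 against 45.6) and Sox18 (9.1 against 5.8). Erythroid markers stood on the opposite side, with 11 of 11 at least 4-fold higher in the CD45-negative array (median 6.12), against 8.31% of all measured genes, and so did 7 of 10 platelet markers (median 3.27).

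Genes tied to the same survival role as the Gimap family were not uniform. Of the interleukin-7 pathway, which maintains lymphocytes, Il7r, its receptor, read 165.9 against 8646.5, or 52.1-fold lower. Its signalling kinase Jak3 read 154.4 against 811.5 (5.26-fold lower) and the broadly expressed kinase Jak1 7110.6 against 16984.1 (2.39-fold lower). The transcription factors Stat5a and Stat5b were 4.06-fold and 3.95-fold lower by their brightest probe sets, next to the 4-fold line. Without a detection level, the other Stat5b probe set gave only -0.50 on the log2 scale. The 3 probe sets of Jak1 ran from -2.22 to -1.26. In all, 3 of 5 measured genes of this list passed 4-fold downward, against 1 of 5 after quantile normalization, and the median was -2.02. The share over all measured genes was 16.8%, or 12.8% after quantile normalization. Il7 itself was under the level in both arrays, and Il2rg was not analysed here.

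In the list of naive lymphocyte maintenance, 7 of 7 measured genes passed 4-fold downward by their brightest probe sets, 2 of them (Satb1 and Foxo1) with probe sets that disagree in direction. The share over all measured genes was 16.8%. The median of the list was -5.56, or -4.06 with the mean of probe sets. Klf2, a transcription factor of resting lymphocytes, read 221.5 against 14665.8 (66.2-fold lower), and Ccr7, the homing receptor for lymphoid tissue, 86.9 against 4763.4 (at least 37.4-fold). Satb1 and Bach2 were 69.8-fold and at least 63.8-fold lower by their brightest probe sets. Without a detection level, the probe sets of Satb1 ran from -6.78 to 0.85 and those of Bach2 from -6.19 to -0.81. Those of the transcription factor Foxo1 ran from -5.31 to 1.40. Single probe sets of Satb1 and Foxo1 thus disagreed in direction. With the mean of probe sets, all 7 genes of the list still passed 4-fold downward.

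The Bcl2 family, which sets the threshold for cell death, was split. Among 9 measured genes, 3 passed 4-fold downward and 1 upward, beside 16.8% and 8.31% of all measured genes, and the median was -0.94. Bcl2, the survival factor of lymphocytes, read 109.1 against 2851.5, at least 22.4-fold lower. Bid, a death-promoting member, was 9.36-fold lower by its brightest probe set, and Pmaip1, another, at least 11.6-fold lower. Without a detection level, the 3 probe sets of Bid ran from -3.45 to -1.25, so not all passed 4-fold. Bcl2l1, which encodes the survival factor of maturing red cells, read 5217.1 against 630.8 and was 8.27-fold higher. Mcl1, a further survival factor, read 10286.4 against 19781.1.

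Among the Atg8 proteins of autophagy is Gabarapl2, to which Gimap6 binds. Gabarapl2 read 14940.4 against 2388.4, or 6.26-fold higher in the CD45-negative array, and its second probe set gave 2.78 on the log2 scale. Gabarapl1 was 4.28-fold higher. Map1lc3b was 4.50-fold higher by its brightest probe set, but its 4 probe sets ran from -3.00 to 2.17 and do not settle a direction. Gabarap (20528.9 against 10770.5) and Map1lc3a (1508.4 against 1016.1) differed by under 4-fold. Among the 5 genes, 3 passed 4-fold upward, Map1lc3b included, and 0 downward, beside 8.31% and 16.8% of all measured genes. The count was 2 after quantile normalization and with the mean of probe sets, and the median was 2.10, or 0.93 with that mean.

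Other GTPases of immune cells showed no such uniform pattern. Among 11 measured interferon-inducible GTPases, 6 passed 4-fold downward and 0 upward, beside 16.8% and 8.31% of all measured genes. The median of the list was -2.47. The guanylate-binding proteins Gbp2 and Gbp6 were 13.6-fold and 15.5-fold lower, and Gbp8 and the antiviral Mx1 at least 13.6-fold and at least 13.5-fold lower. The immunity-related GTPases Irgm1 (5743.7 against 2798.8), Irgm2 (1196.4 against 690.9) and Igtp (7022.5 against 4547.6) were instead brighter in the CD45-negative array, by under 4-fold.

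Septins, which build filaments and are structural relatives of the Gimap proteins, differed in both directions. Among 8 measured genes, 2 passed 4-fold downward, 1 passed it upward and 5 did neither, and the median was -0.07 (0.02 with a level per array). With so few genes these counts lie near the shares over all measured genes, 16.8% downward and 8.31% upward. Septin9 read 93.6 against 3411.8 (at least 26.8-fold lower) and Septin6 131.3 against 4030 (30.7-fold lower), while Septin8 read 2453.3 against 129.2 (19.0-fold higher, and 0.93 on the log2 scale by its lowest probe set). Septin7, a subunit of most septin filaments, read 9830.1 against 9390.9. Differences between these lists and the Gimap genes were not tested.

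**Figure D4:**
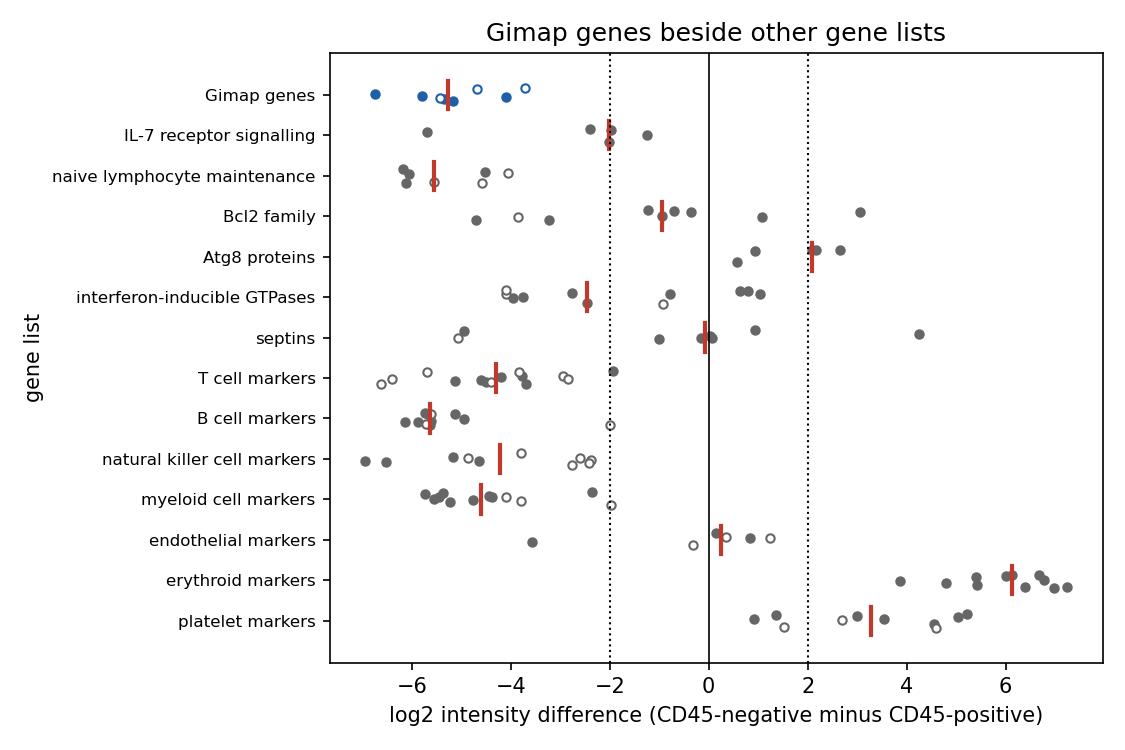
Difference in log2 intensity (CD45-negative minus CD45-positive) of each measured gene, by list, with the Gimap genes in blue, 1 array per group and vertical jitter for display only. Filled points were measured in both arrays, open points are bounds, red bars are list medians and dotted lines mark 4-fold; the filled Gimap points lie between -6.75 and -4.10, and the open ones, drawn at the common detection level, are also left of the lower 4-fold line.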

How the data were processed

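RNA of 2 sorted spleen cell samples was hybridised to Affymetrix 3' arrays, 1 array per group. The authors deposited linear intensity values of 45037 probe sets. The submitters' processing notes name GCRMA and Partek 6.6 without a role, and the scaling step behind the authors' intensity values is not settled. The platform annotation gave 34945 probe sets 1 symbol, 932 several and 9160 none. Only probe sets with 1 symbol were used. No pseudocount was added before taking log2, and no further normalization was made. The probe set with the highest mean log2 value represented a gene. Values at or under the detection level were set to it, and 4-fold differences were counted. Median intensity was 85.1 and 87.8, and 54.2% and 56.1% of genes were above the level, in the CD45-negative and CD45-positive array. The number of arrays limits precision, and no test was made.

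The members, the 13 gene lists and the motifs were chosen with earlier results of these data known. Named genes are the members, their neighbours, the 5 nearest genes and list genes with the largest differences or the opposite direction. Not every gene so taken is named, and other named list genes were chosen after their values were seen. The 7 alternatives cover the detection level, the probe set and the scaling. Python 3.11.15, numpy 2.4.6, pandas 2.3.3 and matplotlib 3.10.9 were used, and the computations were tested on simulated data. Differences were planted there in bright genes only, so the bounds for values under the detection level were not tested that way.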

Additional observations from a re-analysis of the deposited data

How the results depend on the processing

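The count of Gimap genes at least 4-fold lower was 8 of 8 under all 7 alternatives. Their median difference ran from -5.40 with no detection level to -4.78 with the detection level at the 99th percentile. Of 56 values of single members under these alternatives, all 56 were at least 4-fold lower. Of these, 53 moved by less than 0.83 log2 units, the pooled SD of probe sets around the mean of their gene. The other 3 were Gimap5 with no detection level (-6.90) and Gimap6 (-5.67) and Gimap7 (-3.97) with the mean of probe sets. These Gimap6 and Gimap7 values are limits, because the mean CD45-negative value lay under the detection level and was held at it. Of 139 other log2 values (medians and neighbours), 4 moved by more than this. These were the neighbours Repin1 (-4.15) and Zfp775 (-6.55) with no detection level and the medians of naive lymphocyte maintenance (-4.06) and Atg8 genes (0.93) with the mean of probe sets. Signs changed in 3 medians near 0, that of septins with a level per array (0.02) and that of all genes with no level (0.02) or quantile normalization (0.01). Of 189 counts, 3 moved by over 1.5 times, namely interleukin-7 genes lower after quantile normalization (1) and higher with no level (1), and endothelial genes lower with no level (3). No paired analysis was possible because each group had 1 array, and for the same reason no array could be left out. Signal near the detection level limits Gimap1, Gimap5, Gimap7 and Gimap9 to lower bounds. The same held for Gimap6 (-6.45) with the detection level at the 99th percentile.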
